A study of Mus musculus with 16 samples.

Results

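The genes described here are 10 components of the autophagy machinery, taken through all the array probe sets that carry their symbol alone in the platform annotation: Ulk1, Becn1, Wipi1, Atg7, Atg5, Atg12, Map1lc3a, Map1lc3b, Gabarap and Sqstm1. They are represented by 32 of 45037 probe sets, of which 25 passed the filter on low values (over 4 log2 on at least 4 arrays), as did 23905 probe sets in all. The 7 that did not pass belong to Becn1 (2) and to Wipi1, Atg7, Atg12, Map1lc3b and Sqstm1 (1 each). Each of the 10 genes has at least 1 tested probe set, among 11465 genes tested. Expression was measured in the hippocampus of 12-month-old male mice on Affymetrix arrays, with 1 mouse per array and 4 arrays in each of 4 groups. The first group, AβPP-Antisense, was SAMP8 mice that received an antisense oligonucleotide against the amyloid-β precursor protein. The second, Random-Antisense, was SAMP8 mice given an oligonucleotide of random sequence, both by the intravenous route. The third, called SAMP8, was untreated mice of this senescence-accelerated strain, which has memory deficits at this age. The fourth, Control, was untreated mice from a backcross of SAMP8 with CD-1 that shows no memory deficit. All groups therefore carry SAMP8 alleles.

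Autophagy encloses cytoplasm, damaged organelles and protein aggregates in a double membrane, the autophagosome, which then fuses with the lysosome. A kinase complex around Ulk1 starts the process, a lipid kinase complex that holds Beclin 1 marks the forming membrane with a phospholipid that WIPI proteins read, and conjugation enzymes attach LC3 and GABARAP proteins to the membrane. In neurons, which do not divide, this route removes proteins and organelles that would otherwise accumulate, and mice without Atg5 or Atg7 in the nervous system develop neurodegeneration. The arrays measure transcripts only, so they carry no measurement of autophagic flux.

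All 7 hippocampal neuron markers listed passed the filter, from Prox1, a dentate gyrus marker, at a mean of 5.92 log2, to Camk2a, a kinase gene of excitatory neurons, at 11.80. Their mean per array lay between 9.02 and 10.34 log2 in AβPP-Antisense, between 9.86 and 10.06 in Random-Antisense, between 9.72 and 10.03 in SAMP8 and between 9.22 and 10.07 in Control. Markers of neighbouring tissue were also present, with means of 14.99 log2 for the choroid plexus gene Ttr and 8.97 for the thalamic gene Prkcd, and no other brain region was at hand to compare. A pair of arrays stood furthest from the rest. AβPP-Antisense 4 had a median correlation with the other arrays of 0.905 and Control 4 of 0.922, followed by AβPP-Antisense 2 at 0.958 and 1 at 0.969. The difference between the 3′ and 5′ β-actin control probe sets was 1.60, 1.60, 1.21 and 3.89 log2 on AβPP-Antisense 1 to 4. In the other groups it was 0.84 to 1.36. The same difference for the Gapdh control was -0.09, 0.02, -0.35 and 1.26 on AβPP-Antisense 1 to 4, against -0.41 to -0.30 in the other groups. RNA integrity thus differed within AβPP-Antisense and from the other groups, and its part in the differences below was not tested. The mean of the 7 choroid plexus markers lay between 5.42 and 7.01 log2 in AβPP-Antisense, between 7.71 and 8.83 in Random-Antisense, between 8.21 and 9.28 in SAMP8 and between 7.75 and 8.74 in Control, so that AβPP-Antisense lay below the other groups on every array. The mean of the 4 tested leukocyte markers of 6 listed lay between 8.11 and 8.79 log2 in AβPP-Antisense, above Random-Antisense at 7.27 to 7.91 and SAMP8 at 7.72 to 7.86, and between 6.99 and 7.99 on 3 Control arrays, with 12.69 on Control 4. The mean of the 4 thalamus markers was 6.23 and 6.39 log2 on AβPP-Antisense 1 and 3, against 7.41 to 8.74 on the other 14 arrays, and the 1 tested erythroid marker of 3 read 9.81 on AβPP-Antisense 2, against 4.22 to 7.69 on the other 15. The part of these markers in the differences below was not tested. The treatment label of Random-Antisense 1 says untreated, against its title, and the array was kept by its title. In bulk tissue, fewer cells of a type and less RNA per cell cannot be told apart.

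No autophagy gene passed the test in any of the 4 comparisons. With limma and Benjamini-Hochberg adjustment over all tested probe sets, 0 of 25 member probe sets were called between AβPP-Antisense and Random-Antisense, where 0.0837% of all probe sets and 0.0262% of genes were. The count was also 0 of 25 between AβPP-Antisense and SAMP8, beside 0.289% of probe sets and 0.0959% of genes, between Random-Antisense and SAMP8, beside 0% of both, and between SAMP8 and Control, beside 0.36% of probe sets and 0.227% of genes. Limma-trend called 0 members as well. At an unadjusted p under 0.05 the members gave 3, 4, 0 and 1 of 25 probe sets in the same order, or 12%, 16%, 0% and 4%, against 12.3%, 14.7%, 1.12% and 4.38% of all tested probe sets, so their share lay near the background.

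The 95% confidence intervals say how large a difference these arrays leave room for. Taking the brightest tested probe set of each gene, the 40 intervals (10 genes in 4 comparisons) ran from -0.81 to 0.89 log2 at their extremes, and 0 of their bounds reached 1 log2. Of these intervals, 37 held 0. The others were Atg5 between AβPP-Antisense and Random-Antisense, Sqstm1 between AβPP-Antisense and SAMP8, and Map1lc3b between SAMP8 and Control. Some other tested probe sets of the same genes had bounds past 1 log2. The interval of Ulk1 1416504_at reached -1.93 between AβPP-Antisense and Random-Antisense and 1.36 between Random-Antisense and SAMP8. That of Atg12 1451746_a_at reached -1.91 between AβPP-Antisense and SAMP8. Between AβPP-Antisense and Random-Antisense, Wipi1 1438709_at reached -1.24 and Map1lc3b 1415930_a_at -1.01. Becn1 1460320_at reached -1.02 between AβPP-Antisense and SAMP8, and Wipi1 1456624_at 1.08 between SAMP8 and Control. The limit of 1 log2 therefore holds for the brightest probe sets and not for all probe sets of these genes.

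**Figure D1:**
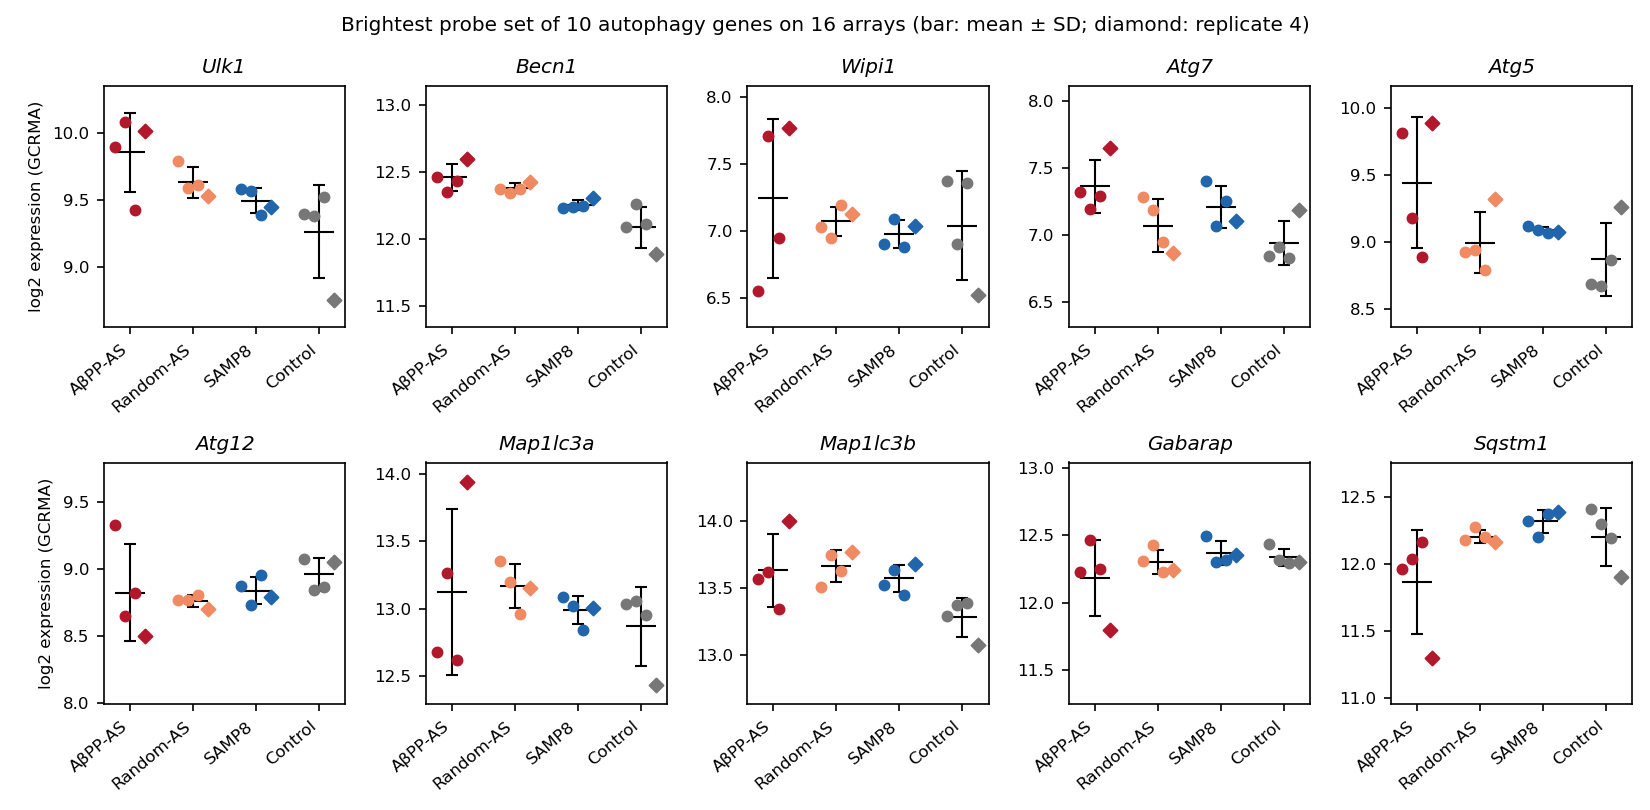
Level (log2) of the brightest tested probe set of each of the 10 autophagy genes on each of the 16 arrays, by group, with group means; diamonds mark replicate 4. Sqstm1 on AβPP-Antisense 4 reads 11.30 and Becn1 reads 12.35 to 12.59 in AβPP-Antisense, against 12.23 to 12.30 in SAMP8.

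The genes are taken below in the order in which their products act. Ulk1, the kinase that starts autophagosome formation, read 9.89, 10.08, 9.43 and 10.01 log2 in AβPP-Antisense mice, 9.79, 9.59, 9.61 and 9.53 in Random-Antisense mice, 9.58, 9.57, 9.39 and 9.45 in SAMP8 mice and 9.39, 9.38, 9.52 and 8.75 in Control mice. The group means stood in that order, and the groups overlapped. AβPP-Antisense mice differed from SAMP8 mice by 0.36 log2 (SE 0.17, limma adjusted p = 0.352) and from Random-Antisense mice by 0.22 (SE 0.17, adjusted p = 0.629). Its other tested probe set, 1416504_at, differed in the opposite direction by -0.92 between AβPP-Antisense and Random-Antisense. That value turned on 1 array, since AβPP-Antisense 4 read 2.82 log2 while the other 15 arrays read 5.09 to 5.97, and without AβPP-Antisense 4 and Control 4 the difference was -0.22.

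Becn1 encodes Beclin 1, a subunit of the class III phosphatidylinositol 3-kinase complex. Its brightest probe set, 1455880_s_at, read 12.46, 12.35, 12.43 and 12.59 log2 in AβPP-Antisense mice, 12.37, 12.34, 12.37 and 12.43 in Random-Antisense mice, 12.23, 12.23, 12.24 and 12.30 in SAMP8 mice and 12.09, 12.26, 12.11 and 11.89 in Control mice. All 4 AβPP-Antisense arrays and all 4 Random-Antisense arrays lay above all 4 SAMP8 arrays. AβPP-Antisense minus SAMP8 was 0.21 log2 (SE 0.10, 95% confidence interval -0.0017 to 0.42, adjusted p = 0.347), and Random-Antisense minus SAMP8 was 0.13 (SE 0.10, adjusted p = 1). The 2 differences share the SAMP8 arrays. SAMP8 minus Control was 0.17 (SE 0.10, adjusted p = 0.999) with overlapping groups, and 0.10 without Control 4.

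The other Becn1 probe sets did not give 1 picture. For 1435219_x_at the AβPP-Antisense arrays read 5.07 to 5.55 log2, above the Random-Antisense arrays at 4.89 to 5.0 and the SAMP8 arrays at 4.89 to 5.01, with differences of 0.26 (adjusted p = 0.391) and 0.29 (adjusted p = 0.277). Without AβPP-Antisense 4, which read 5.55, and Control 4 these were 0.15 and 0.18. For 1460320_at the differences were -0.35 and -0.46, and 8.36 log2 on AβPP-Antisense 4 was the lowest value of the 16 arrays. Without AβPP-Antisense 4 and Control 4 they were 0.01 and -0.10. The suffix _s_at marks probe sets that can match several transcripts and _x_at those in which some probes may cross-hybridise.

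Wipi1, which binds the lipid made by the Beclin 1 complex, read 6.55, 7.70, 6.95 and 7.77 log2 in AβPP-Antisense mice on 1439060_s_at, against 6.94 to 7.19 in Random-Antisense mice, 6.88 to 7.09 in SAMP8 mice and 6.52 to 7.37 in Control mice. The AβPP-Antisense arrays reached above every other group and, at the low end, below the Random-Antisense and SAMP8 arrays. Its 4 differences ran from -0.06 to 0.27 log2, each with an SE of 0.25. The 4 other tested Wipi1 probe sets had differences between AβPP-Antisense and Random-Antisense from -0.41 to 0.15.

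Atg7, Atg5 and Atg12 belong to the conjugation system: Atg7 is its activating enzyme, and Atg12 is joined to Atg5 to form part of the ligase for LC3. Atg7 read 7.32, 7.20, 7.29 and 7.65 log2 in AβPP-Antisense mice, 7.29, 7.19, 6.95 and 6.87 in Random-Antisense mice, 7.41, 7.07, 7.26 and 7.11 in SAMP8 mice and 6.85, 6.91, 6.83 and 7.19 in Control mice. AβPP-Antisense mice differed from Random-Antisense mice by 0.29 log2 (SE 0.14, adjusted p = 0.414) and SAMP8 minus Control was 0.27 (SE 0.14, adjusted p = 0.999). The groups overlapped in both. The differences were 0.20 and 0.35 without AβPP-Antisense 4 and Control 4. The other tested Atg7 probe sets, 1428610_at and 1428611_at, gave 0.17 and 0.05 between AβPP-Antisense and Random-Antisense. For SAMP8 minus Control they gave -0.06 and -0.04, opposite in sign to the brightest.

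Atg5 read 9.81, 9.18, 8.88 and 9.89 log2 in AβPP-Antisense mice, 8.92, 8.94, 8.79 and 9.32 in Random-Antisense mice, 9.12, 9.09, 9.07 and 9.07 in SAMP8 mice and 8.68, 8.67, 8.86 and 9.26 in Control mice. AβPP-Antisense arrays 1 and 4 were the highest of the 16, while arrays 2 and 3 lay inside the Random-Antisense range. The difference of AβPP-Antisense from Random-Antisense was 0.45 log2 (SE 0.21, 95% confidence interval 0.0023 to 0.89, adjusted p = 0.406). It was 0.30 without AβPP-Antisense 4 and Control 4. The probe set 1418235_at gave 0.41 and 1415684_at gave 0.09 in that comparison.

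The brightest Atg12 probe set, 1451747_a_at, differed by 0.06 log2 between AβPP-Antisense and Random-Antisense and by -0.02 between AβPP-Antisense and SAMP8 (SE 0.15 each). The second, 1451746_a_at, read 7.54, 6.94, 8.68 and 5.91 log2 in AβPP-Antisense mice, 8.14, 8.22, 8.25 and 7.88 in Random-Antisense mice, 7.99 to 8.52 in SAMP8 mice and 8.21 to 8.90 in Control mice. AβPP-Antisense arrays 1, 2 and 4 lay below all 12 other arrays and array 3 lay above the Random-Antisense range. The differences were -0.85 (SE 0.40, adjusted p = 0.409) from Random-Antisense and -1.05 (SE 0.40, adjusted p = 0.25) from SAMP8. Without AβPP-Antisense 3 they were -1.32 (adjusted p = 0.0269) and -1.52 (adjusted p = 0.0107), and without AβPP-Antisense 4 and Control 4 they were -0.40 and -0.60. Array 3 is the array that went the other way. Its β-actin 3′ to 5′ difference was 1.21 log2, against 1.60, 1.60 and 3.89 on AβPP-Antisense 1, 2 and 4, the arrays kept when it is left out. The part of RNA integrity in this probe set was not tested. Over all probe sets, leaving out 1 array gave 11 to 896 and 16 to 1286 calls in these comparisons, against 20 and 69 with all arrays. No other member probe set was called under any alternative run.

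Map1lc3a, Map1lc3b and Gabarap encode homologues of yeast Atg8, which are joined to lipid on the autophagosome membrane and bind cargo receptors. Map1lc3b on 1415928_a_at read 13.56, 13.62, 13.34 and 13.99 log2 in AβPP-Antisense mice, 13.51, 13.74, 13.62 and 13.77 in Random-Antisense mice, 13.52, 13.63, 13.45 and 13.67 in SAMP8 mice and 13.29, 13.37, 13.38 and 13.07 in Control mice. All 4 SAMP8 arrays lay above all 4 Control arrays. SAMP8 minus Control was 0.29 log2 (SE 0.13, 95% confidence interval 0.0024 to 0.58, adjusted p = 0.999). It was 0.22 without Control 4 and AβPP-Antisense 4.

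The other tested Map1lc3b probe sets differed less between SAMP8 and Control, by 0.19 log2 for 1415929_at and by -0.00043 for 1415930_a_at. On 1415930_a_at the AβPP-Antisense arrays read 12.09, 12.04, 12.36 and 11.08 log2, against 12.35, 12.47, 12.52 and 12.47 in Random-Antisense mice and 12.22, 12.35, 12.54 and 12.63 in SAMP8 mice. AβPP-Antisense 3 overlapped both groups. The differences of -0.56 (SE 0.21, adjusted p = 0.31) and -0.54 (SE 0.21, adjusted p = 0.251) were -0.29 and -0.27 without AβPP-Antisense 4 and Control 4.

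Map1lc3a on 1447883_x_at spanned 12.61 to 13.95 log2 in AβPP-Antisense mice, 12.96 to 13.35 in Random-Antisense mice, 12.84 to 13.09 in SAMP8 mice and 12.43 to 13.05 in Control mice. Its differences ran from -0.04 to 0.18 log2 with an SE of 0.24. SAMP8 minus Control was 0.12 on this probe set but -0.38 (SE 0.24, limma adjusted p = 0.999) on the other tested Map1lc3a probe set, 1451290_at. Without AβPP-Antisense 4 and Control 4 these were -0.03 and -0.57 (adjusted p = 0.405 for 1451290_at). On 1451290_at AβPP-Antisense minus Random-Antisense was -0.21 and Random-Antisense minus SAMP8 was 0.21. Gabarap, with a single probe set, spanned 11.79 to 12.47 log2 in AβPP-Antisense mice, 12.23 to 12.43 in Random-Antisense mice, 12.31 to 12.50 in SAMP8 mice and 12.30 to 12.43 in Control mice. AβPP-Antisense minus SAMP8 was -0.19 (SE 0.13, adjusted p = 0.518) for Gabarap, and its groups overlapped in all 4 comparisons. Without AβPP-Antisense 4 that difference was -0.056, and with the β-actin measure as a term it was -0.011.

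Sqstm1 encodes p62, a receptor that binds ubiquitinated cargo and LC3 and is itself degraded by autophagy. It read 11.96, 12.04, 12.16 and 11.30 log2 in AβPP-Antisense mice, 12.18, 12.27, 12.20 and 12.16 in Random-Antisense mice, 12.32, 12.20, 12.37 and 12.39 in SAMP8 mice and 12.41, 12.30, 12.20 and 11.91 in Control mice. All 4 AβPP-Antisense arrays lay below all 4 SAMP8 arrays. They also lay below the Random-Antisense arrays, but AβPP-Antisense 3 and Random-Antisense 4 both round to 12.16. Group means were 11.86 ± 0.39 in AβPP-Antisense, 12.20 ± 0.05 in Random-Antisense, 12.32 ± 0.09 in SAMP8 and 12.20 ± 0.22 in Control (SD, n = 4 each).

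AβPP-Antisense minus SAMP8 was -0.45 log2 for Sqstm1 (SE 0.16, 95% confidence interval -0.81 to -0.10, adjusted p = 0.231), the smallest adjusted p among the members in this comparison. The difference from Random-Antisense was -0.34 (SE 0.16, 95% confidence interval -0.69 to 0.01, adjusted p = 0.425). Without AβPP-Antisense 4 and Control 4 these were -0.27 (adjusted p = 0.121) and -0.15 (adjusted p = 0.391). In a fit that also held each array's β-actin measure as a term they were -0.19 (adjusted p = 0.703) and -0.10 (adjusted p = 0.843).

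**Figure D2:**
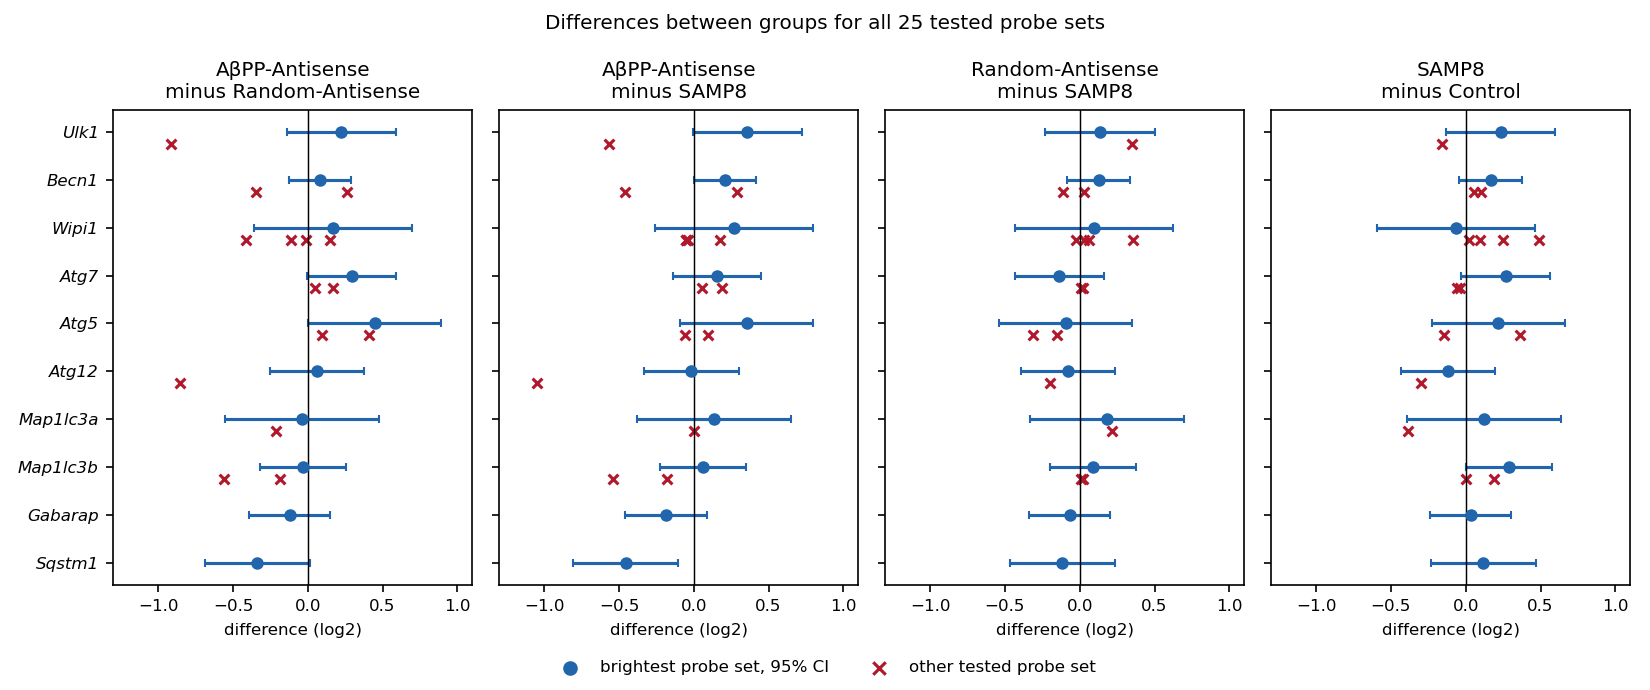
Difference in log2 level between groups for the brightest tested probe set of each gene in the 4 comparisons, with 95% confidence intervals from limma. The intervals run from -0.81 to 0.89, and 37 of 40 hold 0.

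Counts of members whose groups did not overlap were small and are given beside the shares of all genes. With 10 genes the counts are too small to be compared with those shares. Between AβPP-Antisense and Random-Antisense, 0 of 10 genes were higher without overlap and 1, Sqstm1, was lower, where 4.69% of all genes were higher and 2.26% lower. Between AβPP-Antisense and SAMP8, Becn1 was higher and Sqstm1 lower, beside 4.05% and 2.88% of genes. Between Random-Antisense and SAMP8 it was Becn1 alone, beside 4.21% higher and 4.86% lower, and between SAMP8 and Control Map1lc3b alone, beside 2.99% and 1.53%. Over the 25 probe sets, 1 was higher and 1 lower between AβPP-Antisense and Random-Antisense (3.87% and 3.71% of all probe sets), and 2 were higher and 1 lower between AβPP-Antisense and SAMP8 (3.55% and 4.41%). Between Random-Antisense and SAMP8, 2 were higher and 0 lower (3.91% and 4.2%), and between SAMP8 and Control 1 was higher and 0 lower (3.23% and 1.59%).

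The direction of the 10 genes was mixed. AβPP-Antisense minus Random-Antisense was positive for 6 genes with a median of 0.07 log2, beside 56.8% of all genes and a median of 0.04. AβPP-Antisense minus SAMP8 was positive for 7 (median 0.15, all genes 55.2% and 0.03), Random-Antisense minus SAMP8 for 5 (median 0.01, all genes 46.6% and -0.01) and SAMP8 minus Control for 8 (median 0.14, all genes 60.2% and 0.04). Without AβPP-Antisense 4 and Control 4 the medians were 0.02, 0.07, 0.01 and 0.04.

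The order of the 4 group means was seldom wider than the spread of the arrays. Of 30 neighbouring pairs of groups, 5 lay further apart than the larger of their SDs. These were Random-Antisense above SAMP8 for Ulk1 and Becn1, SAMP8 above Control for Becn1 and Map1lc3b, and SAMP8 above Random-Antisense for Sqstm1. Ulk1 and Becn1 shared the order AβPP-Antisense, Random-Antisense, SAMP8, Control.

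Probe sets of the same gene moved apart on some arrays, most often on AβPP-Antisense 4. Among the 8 genes with more than 1 tested probe set, the brightest minus each other probe set gave 15 gaps per array, and 9 of the 15 were widest on AβPP-Antisense 4. The gap there exceeded its median over the 16 arrays by 3.36 log2 for Ulk1, 2.04 for Atg12, 1.79 for Map1lc3b (1415930_a_at) and 1.71 for Becn1 (1460320_at). On the 12 arrays of the other groups the same Ulk1 gap stayed between -0.68 and 0.46 of its median, and the Atg12 gap between -0.40 and 0.27. AβPP-Antisense 1 and 2 also had wide Atg12 gaps, by 1.23 and 1.15, at β-actin 3′ to 5′ differences of 1.60 on both. Wipi1 gaps were widest elsewhere for 3 of its 4 pairs, by 1.21 on AβPP-Antisense 2 (1427323_s_at), 0.998 on AβPP-Antisense 1 (1438709_at) and 1.0 on Control 4 (1456624_at). The part of RNA integrity in these gaps was not tested.

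**Figure D3:**
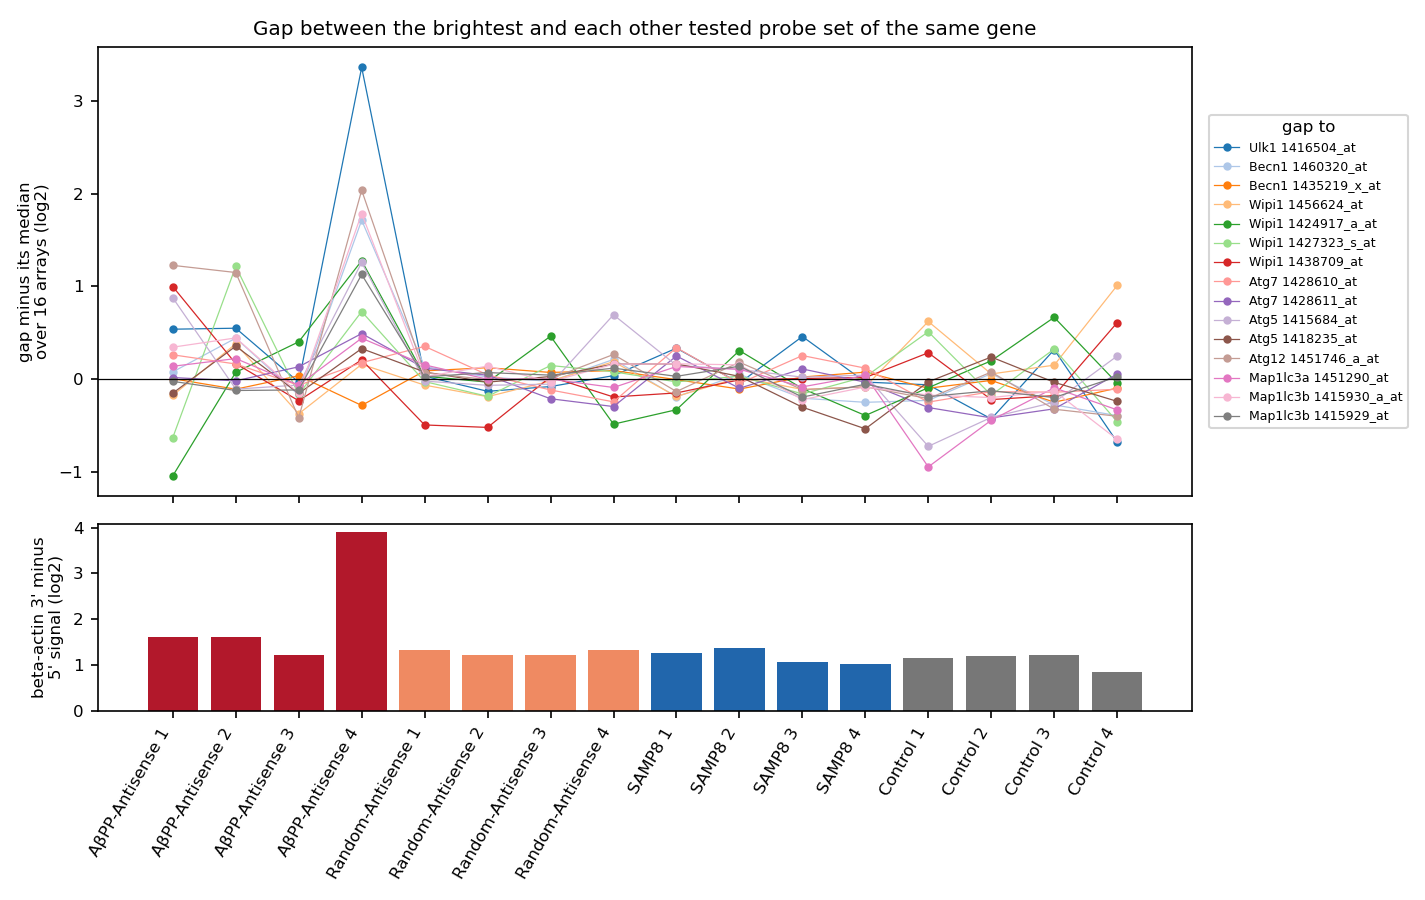
Gap in log2 level between the brightest and each other tested probe set of a gene, relative to its median over the 16 arrays, set against the 3′ minus 5′ difference of the β-actin control on the array. AβPP-Antisense 4, at 3.89 log2 on the β-actin axis, has the widest gap in 9 of 15 cases.

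A list of 53 further autophagy genes, 50 of them tested, also held no call. The list was written from general knowledge with earlier results of these data known. Limma called 0 of 50 in all 4 comparisons, and 6, 6, 0 and 2 genes had an unadjusted p under 0.05 in AβPP-Antisense minus Random-Antisense, AβPP-Antisense minus SAMP8, Random-Antisense minus SAMP8 and SAMP8 minus Control. These are 12%, 12%, 0% and 4% of the list, near the 8.84%, 10%, 1.04% and 3.77% of all genes. The median differences were -0.03, 0.01, 0.01 and 0.05 log2, beside 0.04, 0.03, -0.01 and 0.04 for all genes. Without AβPP-Antisense 4 and Control 4 the medians of the list were -0.04, -0.01, 0.01 and -0.01. SAMP8 minus Control was then positive for 23 of 50 genes, against 32 with all arrays. By stage, AβPP-Antisense minus SAMP8 was positive for 1 of 4 tested initiation genes, 6 of 9 genes grouped with the class III lipid kinase complex and 6 of 7 of lipid supply or phospholipid binding. It was positive for 6 of 8 of conjugation, 0 of 2 Atg8 homologues, 1 of 8 cargo receptors, 2 of 7 of fusion and 3 of 5 regulators, where 55.2% of all genes were positive. AβPP-Antisense minus Random-Antisense was positive for 1, 3, 5, 5, 0, 1, 4 and 3 genes of these stages in the same order, where 56.8% of all genes were. The 9 genes hold Bcl2, Rubcn and Vmp1 (0.10, 0.23 and -0.36 in AβPP-Antisense minus SAMP8) beside subunits such as Pik3c3 (-0.31). Their count is therefore not a measure of the kinase complex itself. The stage counts rest on all 16 arrays, and the stages were not tested against each other or against other genes.

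Deptor, an inhibitor of the mTOR kinase that restrains autophagy, had the smallest p in both AβPP-Antisense comparisons. It read 7.35, 8.04, 7.23 and 6.41 log2 in AβPP-Antisense mice, 8.59, 8.29, 8.55 and 8.40 in Random-Antisense mice and 8.45, 8.10, 8.09 and 8.61 in SAMP8 mice. The AβPP-Antisense arrays lay below both groups, with differences of -1.20 (SE 0.26, adjusted p = 0.0974) and -1.05 (SE 0.26, adjusted p = 0.103). Without AβPP-Antisense 4, which held the lowest value, and Control 4 the first was -0.91 (adjusted p = 0.0407). Without AβPP-Antisense 2 the differences were -1.46 (adjusted p = 0.0125) and -1.31 (adjusted p = 0.0215). AβPP-Antisense 2 held the highest value of its group, 8.04, so leaving it out had to enlarge both. Without AβPP-Antisense 3 the difference from Random-Antisense was -1.19 (SE 0.29, adjusted p = 0.0374). That difference was no larger than with all arrays and its SE was wider. The adjusted p also depends on the p values of all other probe sets. In the other alternative runs this probe set was not called in either comparison. Without AβPP-Antisense 4 and Control 4, 70 of 11465 genes were called between AβPP-Antisense and Random-Antisense. Leaving out 1 array gave up to 896 and 1286 calls over all probe sets, against 20 and 69 with all arrays. The other tested Deptor probe sets gave -0.75, -0.21 and 0.07 from Random-Antisense and -0.83, -0.19 and 0.01 from SAMP8.

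The Atg8 homologues outside the 10 genes, Gabarapl1 and Gabarapl2, both read lower on average in AβPP-Antisense. Gabarapl1 read 13.34, 12.88, 13.19 and 12.38 log2 in AβPP-Antisense mice, against 13.58, 13.52, 13.50 and 13.57 in Random-Antisense mice, without overlap and with a difference of -0.60 (SE 0.18, adjusted p = 0.218). From SAMP8 it differed by -0.57 (adjusted p = 0.172). Its lowest value, 12.38, was on AβPP-Antisense 4, the array with the largest β-actin 3′ to 5′ difference. Gabarapl2 differed from SAMP8 by -0.59 (SE 0.16, adjusted p = 0.136), and by -0.68 (SE 0.17, adjusted p = 0.0379) without AβPP-Antisense 3. That array had the smallest β-actin difference of its group, at 1.21 log2. Gabarapl2 was not called in the other alternative runs, among them the one without AβPP-Antisense 4 and Control 4. The part of RNA integrity in these differences was not tested. The second Gabarapl1 probe set gave -0.33 and -0.37 from Random-Antisense and SAMP8, and the second Gabarapl2 probe set 0.12 and 0.07. The third gene by p between AβPP-Antisense and Random-Antisense was Atg16l1, the partner of the Atg12 to Atg5 conjugate, at 0.36 (adjusted p = 0.375).

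In Random-Antisense minus SAMP8 the smallest p values were those of Gabarapl2 at -0.33 log2, Atg4c at 0.40 and Bnip3 at -0.18 (adjusted p = 1 each). In SAMP8 minus Control they were those of Atg4a, a protease that processes Atg8 homologues, at -0.48 (adjusted p = 0.944), Uvrag, a Beclin 1 partner, at -0.40 and Calcoco1 at 0.36 (adjusted p = 0.999 each).

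**Figure D4:**
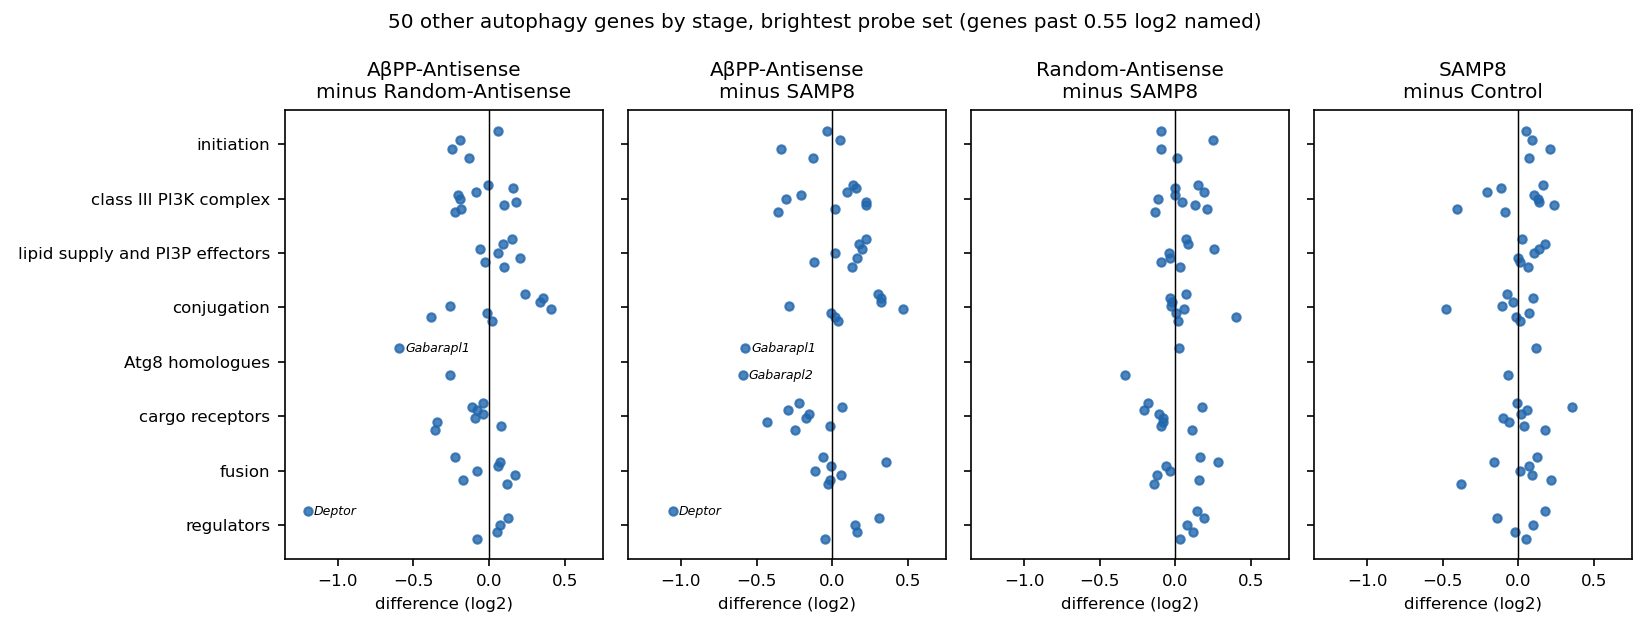
Difference in log2 level for the brightest probe set of the 50 tested genes of the wider autophagy list in the 4 comparisons, by stage of the pathway. Deptor has the lowest values, at -1.20 and -1.05 in the AβPP-Antisense comparisons, and 0 of 50 genes pass the threshold of 0.05 on the adjusted p.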

How the data were processed

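The deposited values are on a log2 scale, 1 per probe set and array, made by the authors with GCRMA per the submitters' processing notes (no version is given in the sources used). Total hippocampal RNA of 1 mouse was hybridised per array, per the labels. Scanner intensities were not used here, so this step was not repeated. Of 45101 probe sets, 64 controls were left out; 34945 have 1 symbol in the platform annotation, 932 several and 9160 none, and through Entrez identifiers 0 member symbols changed.

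A one-way limma 3.58.1 fit (R 4.3.3) on all 16 arrays gave the 4 contrasts (residual degrees of freedom 12, prior 2.63), with Benjamini-Hochberg adjustment over 23905 probe sets and a threshold of 0.05. The script was tested on simulated data. The tested probe set of highest mean stands for a gene; levels of different probe sets are not compared as abundances. Differences are between log2 values. Of the wider list, called genes or otherwise the 3 of smallest p were named. The members, lists, markers and naming rules were chosen with earlier results of these data known. Alternatives covered the filter, scaling, variance model, array weights, fewer arrays, each array left out, the β-actin covariate, the replicate number and the label of Random-Antisense 1. Precision is limited by 4 arrays per group.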

Additional observations from a re-analysis of the deposited data

Results flagged for a closer look

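In 3 of 40 gene and group combinations (brightest probe set, 4 arrays each), 1 array lay far from the other 3 by Dixon's test; chance alone gives about 1 in 20. Becn1 was 12.30 log2 on SAMP8 4, the highest of its group, with the next array at 12.24. Map1lc3a was 12.43 log2 on Control 4, the lowest of its group, with the next at 12.95. Gabarap was 12.43 log2 on Control 1, the highest of its group, with the next at 12.31.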

How the results depend on the processing

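The 40 member gene differences were recomputed under 16 settings that leave out 1 array and 11 others, which gave 1080 values. Of these, 0 passed the threshold and 44 turned sign, over 15 differences. With array weights, AβPP-Antisense minus Random-Antisense was -0.12 log2 for Wipi1, and AβPP-Antisense minus SAMP8 was -0.021 for Wipi1, 0.13 for Atg12, -0.21 for Map1lc3a and -0.055 for Map1lc3b. With array medians set equal, AβPP-Antisense minus SAMP8 was 0.026 for Atg12. With the β-actin covariate, AβPP-Antisense minus Random-Antisense was -0.091 for Wipi1 and 0.037 for Gabarap, and AβPP-Antisense minus SAMP8 was -0.025 for Wipi1, 0.14 for Atg12, -0.30 for Map1lc3a and -0.14 for Map1lc3b. Without AβPP-Antisense 4 and Control 4, AβPP-Antisense minus Random-Antisense was -0.0048 for Wipi1 and 0.011 for Gabarap, AβPP-Antisense minus SAMP8 was 0.093 for Atg12, -0.14 for Map1lc3a and -0.063 for Map1lc3b, and SAMP8 minus Control was -0.025 for Map1lc3a. With Random-Antisense 1 moved to SAMP8 or left out, AβPP-Antisense minus Random-Antisense was 0.021 for Map1lc3a. With the mean of the tested probe sets of a gene, AβPP-Antisense minus Random-Antisense was -0.35 for Ulk1, -0.00077 for Becn1, -0.043 for Wipi1 and -0.40 for Atg12. In that setting AβPP-Antisense minus SAMP8 was -0.10 for Ulk1 and -0.22 for Map1lc3b, and SAMP8 minus Control was 0.16 for Wipi1 and -0.13 for Map1lc3a. The cause of these turns was not tested.

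Leaving out 1 array at a time, AβPP-Antisense minus Random-Antisense ran from -0.0048 to 0.40 for Wipi1, -0.11 to 0.17 for Atg12, -0.32 to 0.13 for Map1lc3a, -0.15 to 0.064 for Map1lc3b and -0.21 to 0.011 for Gabarap. AβPP-Antisense minus SAMP8 ran from -0.18 to 0.093 for Atg12, -0.14 to 0.31 for Map1lc3a and -0.063 to 0.16 for Map1lc3b, and SAMP8 minus Control from -0.23 to 0.048 for Wipi1, -0.025 to 0.18 for Map1lc3a and -0.011 to 0.064 for Gabarap. The count of called member probe sets and of called genes of the wider list ranged from 0 to 1 in both AβPP-Antisense comparisons, and without AβPP-Antisense 4 and Control 4 it was 1 for the wider list (Deptor) between AβPP-Antisense and Random-Antisense.

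Over all probe sets, leaving out 1 array gave 11 to 896 calls between AβPP-Antisense and Random-Antisense (20 with all arrays), 16 to 1286 between AβPP-Antisense and SAMP8 (69) and 54 to 115 between SAMP8 and Control (86). With the replicate block the calls were 17, 63 and 71 in these comparisons and 0 between Random-Antisense and SAMP8, with 0 members called. Same-numbered arrays did not deviate together, with correlations from -0.275 to 0.236. These values cannot tell whether the mice were matched by number, since matched mice need not deviate together. The 4 arrays per group limit the precision of all values.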

Other observations

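For each of the 10 genes, the gene with the most similar pattern over the 16 arrays was found by Pearson correlation across the brightest probe sets of 11464 other genes. The values are descriptions, since all probe sets share the same arrays and normalization and the best of many is taken. Sqstm1 was closest to Senp2, a SUMO protease, with r of 0.986 over 16 arrays and 0.956 over the 14 without AβPP-Antisense 4 and Control 4. Map1lc3a was closest to St8sia1, a ganglioside synthase (0.976 and 0.929), Ulk1 to the transcription factor gene Nfe2l1 (0.946 and 0.887) and Atg12 to Tbc1d23 (0.939 and 0.93). Map1lc3b was closest to Sema4f (0.928 and 0.863), Becn1 to Supt6 (0.926 and 0.825), Gabarap to Echdc1 (0.924 and 0.751), Wipi1 to Kif26b (0.919 and 0.858), Atg5 to Uty (0.917 and 0.881) and Atg7 to Usb1 (0.855 and 0.799). The likeness of Gabarap to Echdc1 lost the most when the 2 arrays were left out.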
